A study of Mus musculus with 11 samples.

Results

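The T cell receptor (TCR) complex and the proteins that carry its signal from the membrane were followed as 37 genes. These belong to the known pathway and were chosen with earlier results of these data known. All 37 were found, among 20400 genes tested, by matching their symbols in the deposited gene table. They were read by 89 probe sets: 13 genes had 1 probe set, 24 had several, and none had more than 6.

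CD4 T cells were sorted from spleens of female C57BL/6 mice, and their RNA was measured on 11 oligonucleotide arrays, each labelled as a separate biological sample. Naive cells were sorted as CD44 low and CD62L high, and innate memory phenotype (IMP) cells as CD44 high and CD62L low, in both cases from cells carrying TCRβ and CD4. Unmanipulated wild-type mice, 8 weeks old, gave the WT naive group (3 arrays) and the WT IMP group (2 arrays). MW naive (3 arrays) came from irradiated wild-type hosts given marrow lacking MHC class II (MHCII-/-), gated on CD45.2+ cells. WM IMP (3 arrays) came from irradiated CD45.2+ MHCII-/- hosts given CD45.1+ wild-type marrow, gated on CD45.1+ cells. Chimeras were used 8 weeks after transplantation. The labels give the CD45 allele of the MW host in more than 1 way, and by 1 of these labels host and donor carry the same allele, so that gate may not separate donor from host cells. No naive cells of WM chimeras and no IMP cells of MW chimeras were analysed here, so cell state and type of chimera cannot be told apart in chimeric mice. The series is titled as a comparison of mouse models rich in naive or in innate memory phenotype CD4 T cells.

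In a T cell the antigen-binding chains have no signalling parts of their own, and the CD3 and zeta chains carry the motifs that the kinase LCK phosphorylates. ZAP70 docks on these motifs and phosphorylates the scaffolds LAT and SLP-76, which gather the lipase PLCγ1, the exchange factor VAV1 and adaptors of the GRB2 family. Lipase products then open calcium entry towards NFAT and recruit protein kinase C theta and RASGRP1, while phosphatases and the kinase CSK hold the cascade back. The protein level and the phosphorylation of these molecules were not measured by the arrays.

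Each value is a log2 difference whose zero is the average of the WT naive group. They hold no brightness, and neither levels nor the distance of a gene from background can be given. A gene's value is the mean of its probe sets, ± is the standard error from limma unless SD is named, and a member changed where its adjusted p was under 0.05 over all 20400 genes. Fewer cells of a type and less RNA per cell cannot be told apart in such bulk samples.

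Several measurements set arrays apart. All 3 WM IMP arrays went against the female label, with Xist, the RNA of the inactive X chromosome, between -6.42 and -5.65 and the Y-linked Ddx3y between 5.01 and 5.27, while the other 8 arrays lay between -0.20 and 0.60 for Xist and between -0.11 and 0.17 for Ddx3y. Spiked poly-A controls were at 2.29 or more in 4 arrays, 1 of each group, and at -0.91 or less in the other 7. The difference between 5' and 3' control probes of Gapdh, which falls as RNA or its copies shorten, was -0.42 to 0.41 in WT naive, -4.22 to -1.38 in MW naive, -4.23 and -0.27 in WT IMP, and -2.71 to 0.56 in WM IMP. The sorted phenotype was seen in Cd44, which rose in IMP cells by 2.01 ± 0.17 in unmanipulated mice and by 1.85 ± 0.16 in chimeras. Of the defining CD4 T cell genes, Cd3e lay between -0.35 and 0.10 over all arrays, Cd3g between -1.03 and 0.08 and Cd4 between -1.58 and 0.49. Cd4 was at -1.0 ± 0.37 (adjusted p = 0.162) in WT IMP and at -1.13 ± 0.33 (adjusted p = 0.109) in MW naive against WT naive cells.

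IMP cells were first compared with naive cells. The receptor's CD3 chains and the kinases Lck, Fyn and Zap70 did not pass the test in unmanipulated mice or in chimeras. By contrast 2 members that act further down, Grap2 and Prkcq, fell in both and 1, the transcription factor gene Nfatc1, rose in both. In the authors' other table, of quantile-normalized genes, the zeta chain gene Cd247 fell in both, Lck fell in chimeras, and Nfatc1 passed in unmanipulated mice alone. In unmanipulated mice 6 of the 37 members changed (16.2%), 1 upwards and 5 downwards, beside 7.66% of all genes tested, of which 5.31% of genes rose and 2.35% fell. In chimeras 7 members changed (18.9%), 1 upwards and 6 downwards, beside 13.1% of all genes, with 6.46% rising and 6.61% falling. Sex markers and hybridization controls (1.62 to 3.17 in WM IMP, 1.01 to 1.44 in MW naive arrays) also differed in chimeras and cannot be told apart from cell state. With the hybridization control as covariate, Pag1 and Txk did not pass in chimeras and Sos1 did. The arrays of both groups did not overlap for 23 members in unmanipulated mice, beside 39% of all genes, and for 13 in chimeras, beside 26.7%. These shares of all genes include genes at any level, which the values do not give. The median difference over the members was -0.22 in unmanipulated mice and -0.11 in chimeras, against -0.01 and -0.02 over all genes. These medians rest on few arrays: that of unmanipulated mice was -0.11 without WT IMP 1, and that of chimeras was -0.01 without WM IMP 1, where all genes were at -0.05. In the gene table the median in chimeras was -0.06, against -0.05 over all genes. Altogether 27 members passed in neither, 4 in chimeras alone and 3 in unmanipulated mice alone, and no member passed the test of the difference between both contrasts (described further on).

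**Figure D1:**
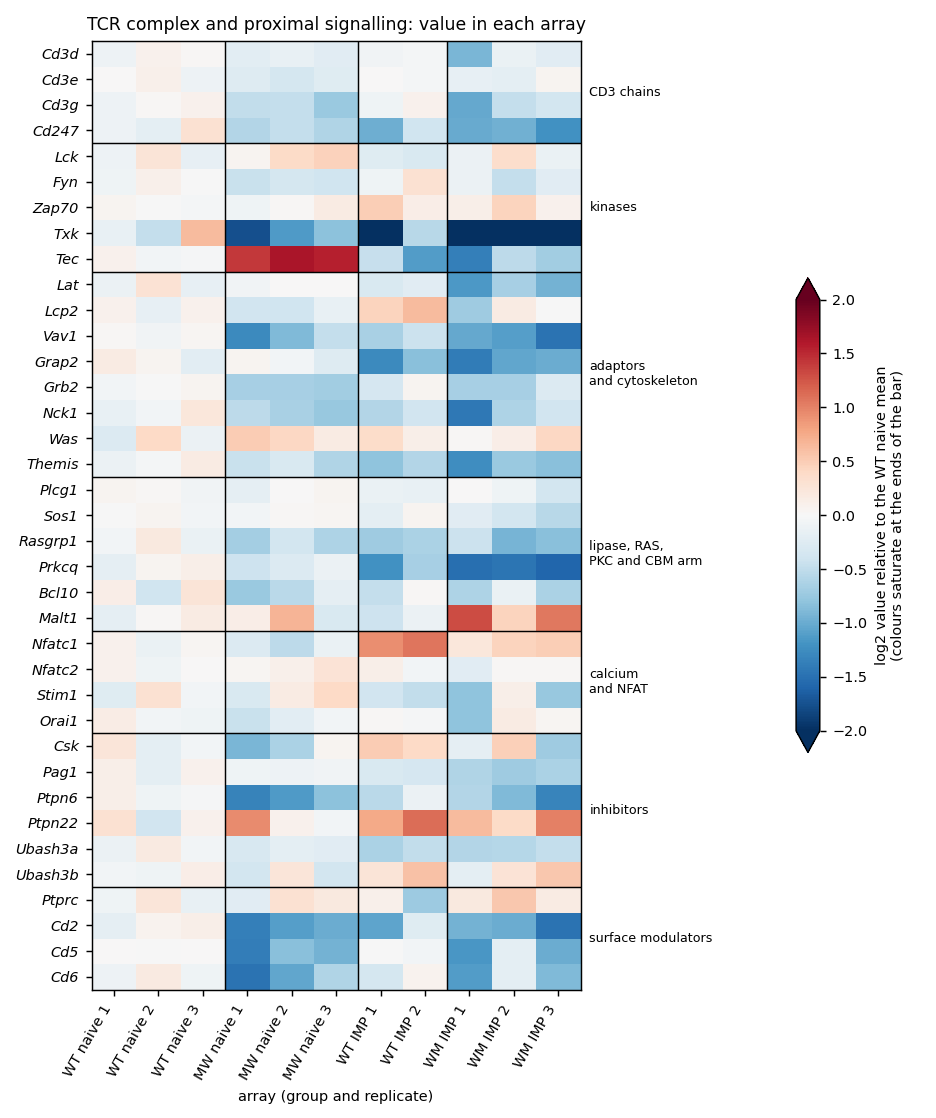
Value of each of the 37 members (rows, grouped by role) in each of the 11 arrays (columns), as log2 relative to the WT naive mean; blue is lower, red higher, and colours saturate at -2 and 2. Prkcq and Grap2 are blue in all IMP arrays, Nfatc1 is red in them, and Tec is red in the MW naive arrays alone.

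The 3 members that changed in both contrasts are described first. Prkcq encodes protein kinase C theta, which links the receptor to NF-κB. It stood at -0.18, 0.06 and 0.12 in WT naive, -0.41, -0.27 and -0.12 in MW naive, -1.21 and -0.66 in WT IMP and -1.51, -1.46 and -1.58 in WM IMP arrays. Every IMP array lay below every naive array. The difference was -0.93 ± 0.17 in unmanipulated mice (1.91-fold lower, adjusted p = 0.00649) and -1.25 ± 0.16 in chimeras (2.38-fold lower, adjusted p = 0.000254). Without WT IMP 1 it was at -0.66 ± 0.19 in unmanipulated mice and did not pass (adjusted p = 0.111).

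Grap2 encodes GADS, the adaptor that bridges LAT and SLP-76. Its values were 0.16, 0.05 and -0.21 in WT naive, 0.05, -0.06 and -0.26 in MW naive, -1.28 and -0.83 in WT IMP and -1.40, -1.04 and -0.99 in WM IMP arrays. Both naive groups lay above both IMP groups without overlap. Grap2 fell by 1.06 on the log2 scale in each contrast (-1.06 ± 0.19, adjusted p = 0.00489 in unmanipulated mice, and -1.06 ± 0.17, adjusted p = 0.00157 in chimeras), which is 2.08-fold. Without WT IMP 1 the value in unmanipulated mice was -0.83 ± 0.23 and did not pass (adjusted p = 0.0937). Its 3 probe sets were all below 0 in both contrasts, and they ranged from -1.27 to -0.77 in unmanipulated mice and from -1.57 to -0.29 in chimeras.

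Nfatc1 encodes an NFAT factor whose own transcription rises on receptor stimulation. It was at 0.09, -0.14 and 0.04 in WT naive, -0.27, -0.52 and -0.14 in MW naive, 0.93 and 1.07 in WT IMP and 0.22, 0.45 and 0.49 in WM IMP arrays. The IMP arrays were all above the naive arrays, and those of chimeras lay below those of unmanipulated mice. The rise was 1.0 ± 0.15 in unmanipulated mice (2-fold, adjusted p = 0.00175) and 0.70 ± 0.14 in chimeras (1.62-fold, adjusted p = 0.00578). In the gene table Nfatc1 was at 0.62 ± 0.14 (adjusted p = 0.0214) in unmanipulated mice and at 0.37 ± 0.13 in chimeras, where it did not pass (adjusted p = 0.0808). In the 7 arrays low in poly-A controls it passed in neither. Of its 5 probe sets, 1 did not follow the others in either contrast. It was at 0.25 ± 0.16 in unmanipulated mice, where the other 4 lay between 1.11 and 1.31. In chimeras it was at -0.19 ± 0.14, where the other 4 lay between 0.75 and 1.30.

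**Figure D2:**
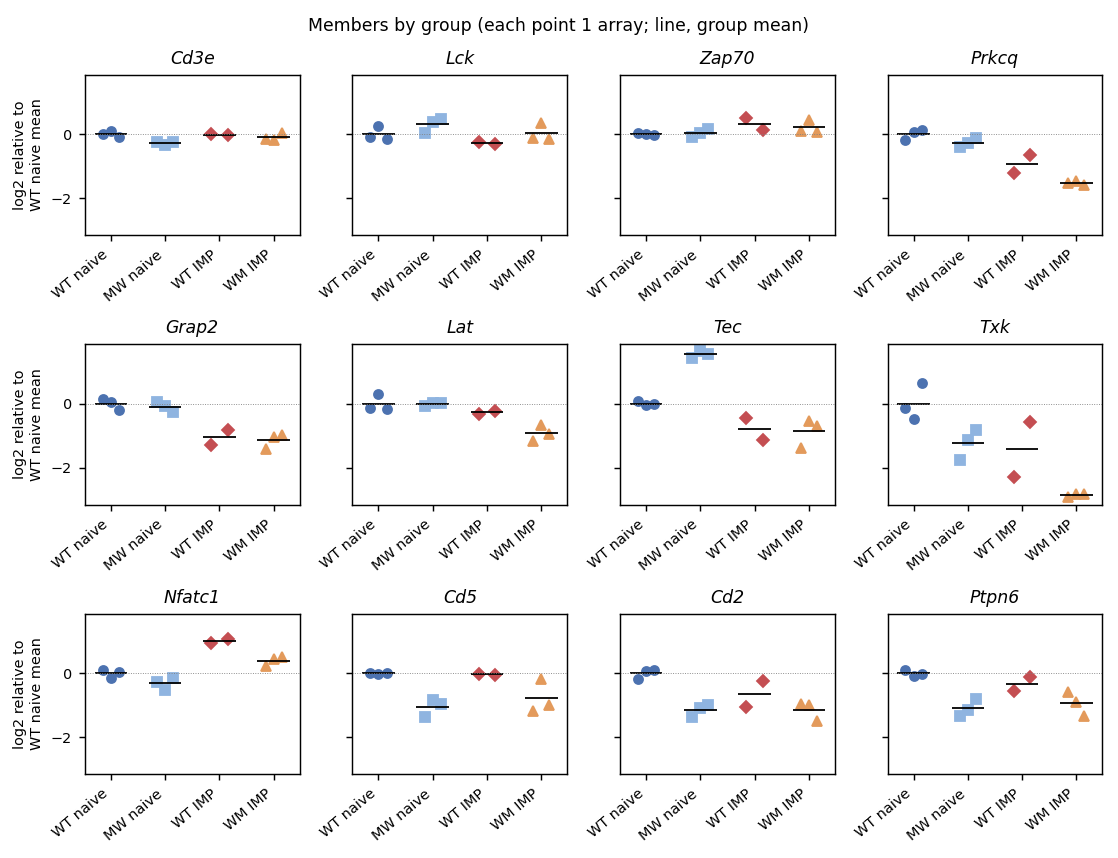
Values of 12 members in each array (points, 1 per array; lines are group means), as log2 relative to the WT naive mean. Prkcq and Grap2 separate both IMP groups from both naive groups, Tec separates MW naive from the other 3 groups, and Cd3e lies within 0.35 of 0 in every array.

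The start sites of 4 of the genes that fell are shown because Prkcq and Grap2 fell in both contrasts and Tec and Lat fell with them in chimeras. Each window runs from 250 bases before the annotated start to 50 after it, 300 bases in all, 5′ to 3′ on the gene's strand (RefSeq, GRCm38.p6). Capitals mark matches, on either strand, to any of 5 motifs: the RUNX core TGTGGT, the TCF/LEF core CTTTGA, the ETS site CAGGAAG, the GC box GGGCGG and the E-box CANNTG. Prkcq lies on the plus strand at chr2:11172132-11172431, Grap2 on the plus strand at chr15:80623233-80623532, Tec on the minus strand at chr5:72868399-72868698 and Lat on the minus strand at chr7:126369519-126369818.
Prkcq: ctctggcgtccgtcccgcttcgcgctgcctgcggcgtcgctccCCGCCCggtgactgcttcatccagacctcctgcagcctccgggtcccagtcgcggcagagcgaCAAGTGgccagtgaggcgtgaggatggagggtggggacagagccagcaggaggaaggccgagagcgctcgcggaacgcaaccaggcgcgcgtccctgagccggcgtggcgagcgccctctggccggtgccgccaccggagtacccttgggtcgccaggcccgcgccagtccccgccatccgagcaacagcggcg
Grap2: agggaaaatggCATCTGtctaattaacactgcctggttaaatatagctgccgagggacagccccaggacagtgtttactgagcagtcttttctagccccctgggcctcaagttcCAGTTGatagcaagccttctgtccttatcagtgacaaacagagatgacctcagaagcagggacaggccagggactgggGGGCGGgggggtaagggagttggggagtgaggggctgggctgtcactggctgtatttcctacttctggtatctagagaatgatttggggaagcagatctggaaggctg
Tec: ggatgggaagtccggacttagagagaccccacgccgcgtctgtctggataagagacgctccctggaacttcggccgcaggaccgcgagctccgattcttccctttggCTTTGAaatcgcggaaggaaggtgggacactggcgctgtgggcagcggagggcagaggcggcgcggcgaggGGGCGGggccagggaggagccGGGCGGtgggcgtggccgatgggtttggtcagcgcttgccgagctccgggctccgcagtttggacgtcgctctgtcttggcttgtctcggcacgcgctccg
Lat: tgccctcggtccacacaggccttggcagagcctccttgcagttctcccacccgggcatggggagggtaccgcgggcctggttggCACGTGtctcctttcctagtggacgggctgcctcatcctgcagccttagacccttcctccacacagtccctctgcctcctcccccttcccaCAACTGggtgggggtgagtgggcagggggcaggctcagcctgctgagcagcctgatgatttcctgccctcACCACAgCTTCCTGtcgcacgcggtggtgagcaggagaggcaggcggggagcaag
The Prkcq window held 1 GC box and 1 E-box, that of Grap2 1 GC box and 2 E-boxes, that of Tec 2 GC boxes and 1 TCF/LEF core, and that of Lat 2 E-boxes, 1 RUNX core and 1 ETS site. No motif was found in all 4 windows. Of 32851 windows of the same length, 16.8% held the RUNX core, 16% the TCF/LEF core, 13.3% the ETS site, 35.7% the GC box and 72.3% the E-box. A match is a run of letters and was not tested as a bound site.

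The CD3 chains come first in the cascade. Cd3e, which pairs with the other CD3 chains, was at 0.00 and -0.04 in WT IMP, at -0.16, -0.19 and 0.05 in WM IMP, at -0.26, -0.35 and -0.25 in MW naive, and at 0.00, 0.10 and -0.10 in WT naive arrays. IMP and naive arrays overlapped in unmanipulated mice, and in chimeras the IMP arrays were the higher ones. The difference was -0.02 ± 0.13 (95% interval -0.30 to 0.26) in unmanipulated mice and 0.19 ± 0.11 (-0.06 to 0.44) in chimeras.

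Cd247 encodes the zeta chain, which carries most of the complex's phosphorylation motifs. It stood at -0.10, -0.19 and 0.30 in WT naive, -0.59, -0.48 and -0.60 in MW naive, -0.97 and -0.40 in WT IMP and -1.01, -0.96 and -1.21 in WM IMP arrays. Its WT IMP arrays lay below the WT naive arrays, and its WM IMP arrays below the MW naive arrays. Yet it missed the threshold, at -0.68 ± 0.19 (adjusted p = 0.0558) in unmanipulated mice and -0.50 ± 0.17 (adjusted p = 0.0827) in chimeras. In the gene table it passed in both, at -0.68 ± 0.18 (adjusted p = 0.0357) and -1.01 ± 0.16 (adjusted p = 0.00114). One of its 4 probe sets was 1.14 lower in chimeras when tested by itself (-1.14 ± 0.19, adjusted p = 0.00214), and the other 3 ranged from -0.77 to 0.15. Cd3d and Cd3g differed by between -0.23 and 0.00 in the contrasts of IMP with naive cells, with no call.

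**Figure D3:**
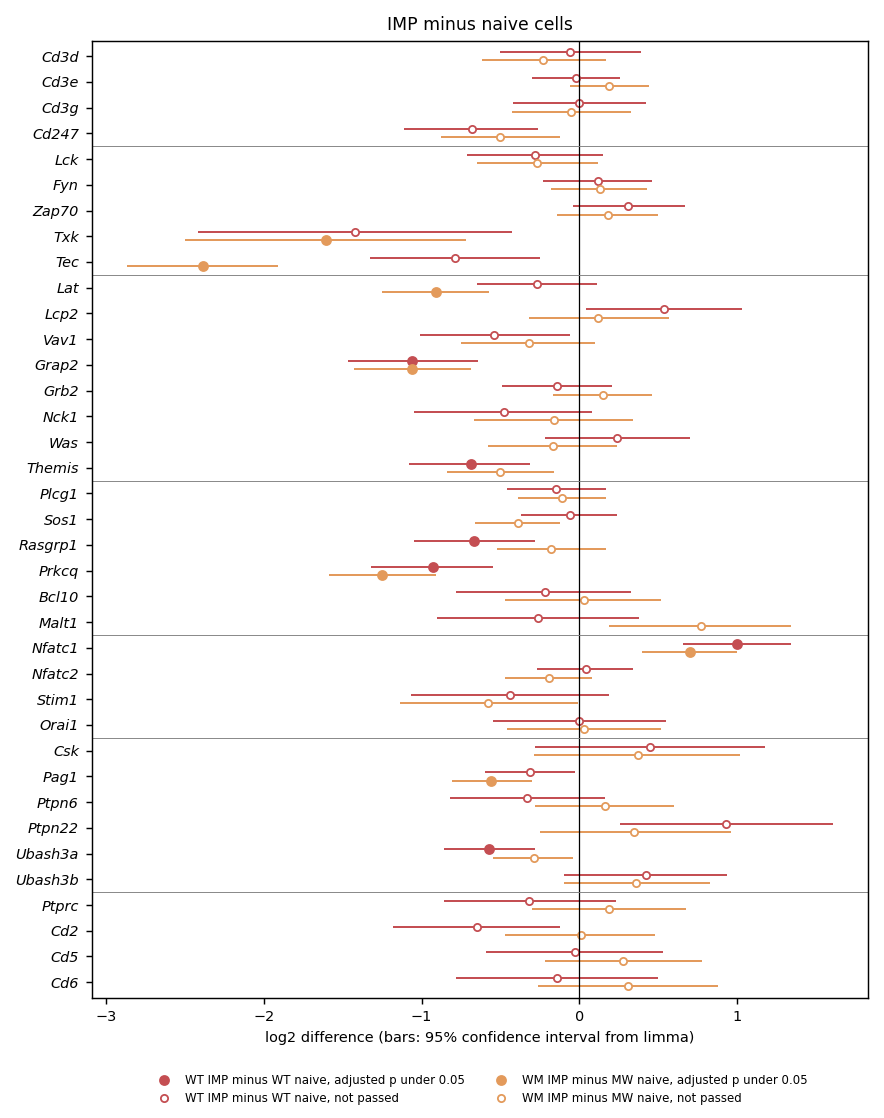
Log2 difference of each member between IMP and naive cells (x axis), in unmanipulated mice (dark red) and in chimeras (orange), with 95% confidence intervals from limma; filled points have an adjusted p under 0.05. Grap2, Prkcq and Nfatc1 are filled in both colours, and Tec in chimeras lies farthest from 0 at -2.39.

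Among the kinases, Lck, which starts the cascade, stood at -0.10, 0.26 and -0.16 in WT naive, 0.05, 0.39 and 0.46 in MW naive, -0.25 and -0.31 in WT IMP and -0.11, 0.35 and -0.14 in WM IMP arrays. The WT IMP arrays were just below the WT naive arrays, and the chimeric groups overlapped. The difference of IMP from naive cells was -0.28 ± 0.20 in unmanipulated mice (95% interval -0.71 to 0.15) and -0.27 ± 0.18 in chimeras (-0.65 to 0.12). Lck fell in chimeras in the gene table (-0.50 ± 0.14, adjusted p = 0.0387). Zap70, the kinase that docks on phosphorylated zeta, was at 0.05, -0.01 and -0.04 in WT naive, -0.09, 0.02 and 0.17 in MW naive, 0.49 and 0.13 in WT IMP and 0.11, 0.45 and 0.08 in WM IMP arrays. The WT IMP arrays lay above the WT naive arrays, and the chimeric groups overlapped. Its differences were 0.31 ± 0.16 (95% interval -0.04 to 0.67) and 0.18 ± 0.14 (-0.14 to 0.50), and neither passed. Fyn, the other SRC family kinase of the complex, differed by 0.12 ± 0.16 and 0.13 ± 0.14.

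Tec and Txk belong to the TEC kinases, which act on PLCγ1, and both fell in chimeras. Tec stood at 0.08, -0.05 and -0.02 in WT naive, 1.42, 1.63 and 1.55 in MW naive, -0.46 and -1.12 in WT IMP and -1.37, -0.53 and -0.69 in WM IMP arrays. The MW naive arrays lay far above all others, and both IMP groups lay below both naive groups. In chimeras Tec was 5.26-fold lower in IMP cells (-2.39 ± 0.22, adjusted p = 2.33e-05), the greatest difference of any member in any of the comparisons. In unmanipulated mice the difference was -0.79 ± 0.24 and did not pass (adjusted p = 0.0833).

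Txk had the widest spread of any member within a group, in WT IMP cells (SD 1.21). It was at -0.15, -0.48 and 0.63 in WT naive, -1.76, -1.13 and -0.82 in MW naive, -2.28 and -0.56 in WT IMP, and at -2.92, -2.82 and -2.82 in WM IMP arrays. The WM IMP arrays were the lowest and lay close together (SD 0.06), while the WT IMP arrays lay on both sides of the MW naive arrays. Txk fell in chimeras by 1.61 on the log2 scale (-1.61 ± 0.40, 3.06-fold, adjusted p = 0.0224). In unmanipulated mice it was at -1.42 ± 0.45 and did not pass (adjusted p = 0.0939). The value in unmanipulated mice depended on the array used: it was -0.56 ± 0.41 (adjusted p = 0.846) without WT IMP 1, and -2.28 ± 0.41 (adjusted p = 0.0108), past the threshold, without WT IMP 2. The call in chimeras was lost without MW naive 2, MW naive 3, WM IMP 1 or WM IMP 3, with values of -1.63 to -1.41.

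Of the 8 adaptors and cytoskeletal regulators, Grap2 and Themis fell in unmanipulated mice and Grap2 and Lat in chimeras. LAT is the membrane scaffold of the whole cascade. Lat stood at -0.12, 0.29 and -0.17 in WT naive, -0.07, 0.01 and 0.01 in MW naive, -0.31 and -0.23 in WT IMP and -1.15, -0.67 and -0.95 in WM IMP arrays. The WM IMP arrays lay below all other arrays, and the WT IMP arrays lay just below the WT naive arrays. Lat fell by 0.91 in chimeras (-0.91 ± 0.16, 1.88-fold, adjusted p = 0.00255), and in unmanipulated mice it was at -0.27 ± 0.17 (adjusted p = 0.545).

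Themis, a GRB2-binding protein known for its part in thymocyte selection, was at -0.12, -0.04 and 0.16 in WT naive, -0.44, -0.30 and -0.60 in MW naive, -0.80 and -0.59 in WT IMP and -1.25, -0.75 and -0.84 in WM IMP arrays. WT IMP arrays were below WT naive arrays, and WM IMP arrays below MW naive arrays. It fell by 0.69 in unmanipulated mice (-0.69 ± 0.17, adjusted p = 0.0323) and missed the threshold in chimeras (-0.50 ± 0.16, adjusted p = 0.0574). The call was lost without any 1 of the WT naive or WT IMP arrays or MW naive 1, at -0.80 to -0.59. Altogether it was lost in 14 of 26 alternatives. Among them were the Gapdh or beta-actin control as covariate and the gene table, where limma gave -0.49 (adjusted p = 0.058). Was, the X-linked actin regulator that NCK1 recruits, was at -0.28, 0.40 and -0.11 in WT naive, 0.51, 0.42 and 0.17 in MW naive, 0.37 and 0.11 in WT IMP and 0.03, 0.14 and 0.41 in WM IMP arrays. Its groups overlapped, and its differences of 0.24 ± 0.21 and -0.17 ± 0.19 did not pass. For Lcp2, which encodes SLP-76, the values were 0.54 ± 0.23 (adjusted p = 0.228) in unmanipulated mice and 0.12 ± 0.20 in chimeras. Vav1, Grb2 and Nck1 ranged from -0.54 to 0.15 over both contrasts with no call.

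In the arm of lipase, RAS and protein kinase C, Rasgrp1 joined Prkcq in unmanipulated mice. RASGRP1 switches on RAS where diacylglycerol is made. Rasgrp1 was at -0.05, 0.19 and -0.14 in WT naive, -0.68, -0.37 and -0.62 in MW naive, -0.71 and -0.63 in WT IMP and -0.43, -0.93 and -0.83 in WM IMP arrays. The WT naive arrays were the high ones, and the other 3 groups overlapped. It fell by 0.67 in unmanipulated mice (-0.67 ± 0.18, 1.59-fold, adjusted p = 0.0404) and was at -0.18 ± 0.16 in chimeras. That call was lost in 15 of 26 alternatives, among them leaving out any 1 of the WT naive or WT IMP arrays (-0.63 ± 0.23 without WT IMP 1 and -0.71 ± 0.23 without WT IMP 2). Others of these alternatives were the Gapdh or beta-actin control as covariate. In the gene table Rasgrp1 also fell in chimeras (-0.59 ± 0.15, adjusted p = 0.0235). Its 4 probe sets disagreed: 1 was lower in both contrasts when tested by itself (-0.76 ± 0.18 and -0.77 ± 0.16), another in unmanipulated mice alone (-1.43 ± 0.33), and the other 2 in neither.

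Plcg1, the lipase itself, was at -0.15 ± 0.14 and -0.11 ± 0.13, within a 95% interval of -0.46 to 0.17 in unmanipulated mice. Sos1, the other RAS exchange factor, was at -0.06 ± 0.14 in unmanipulated mice and -0.39 ± 0.12 (adjusted p = 0.0629) in chimeras. BCL10 and MALT1 form the complex that activates NF-κB. Bcl10 did not pass in either contrast (-0.22 ± 0.25 and 0.03 ± 0.23). Malt1 was at 0.77 ± 0.26 in chimeras (adjusted p = 0.0806) and at -0.26 ± 0.29 in unmanipulated mice. In chimeras it passed in the gene table (0.99 ± 0.18, adjusted p = 0.00277), with the poly-A class as a block (0.77 ± 0.17, adjusted p = 0.0164), without MW naive 2 (1.02 ± 0.25) and without WM IMP 2 (1.01 ± 0.25).

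The members of calcium entry had no call: Stim1, the sensor in the endoplasmic reticulum, was at -0.44 ± 0.29 and -0.58 ± 0.26, and Orai1, the channel it opens, was at 0.00 ± 0.25 and 0.03 ± 0.22. Nfatc2, the NFAT factor already present in resting T cells, was at 0.04 ± 0.14 and -0.19 ± 0.12. Nfatc1 was the single member of its role that changed.

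Inhibitors did not move one way. Ubash3a, a TCR-restraining member of the UBASH3 family, was at -0.12, 0.18 and -0.06 in WT naive, -0.32, -0.19 and -0.23 in MW naive, -0.64 and -0.49 in WT IMP and -0.58, -0.57 and -0.48 in WM IMP arrays. Both IMP groups lay below both naive groups. It fell in unmanipulated mice (-0.57 ± 0.13, 1.48-fold, adjusted p = 0.0223) and not past the threshold in chimeras (-0.29 ± 0.12, adjusted p = 0.137). The call was lost without WT naive 2, WT naive 3, WT IMP 1 or WT IMP 2, at -0.64 to -0.48. With the Gapdh or beta-actin control as covariate it was lost too, while Tec passed in unmanipulated mice. Its relative Ubash3b was on the other side of 0, at 0.42 ± 0.24 and 0.36 ± 0.21, with no call.

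Pag1 encodes the membrane adaptor that holds CSK near LCK. It was at 0.12, -0.20 and 0.08 in WT naive, -0.09, -0.10 and -0.07 in MW naive, -0.30 and -0.33 in WT IMP and -0.60, -0.71 and -0.63 in WM IMP arrays. The WM IMP arrays were the lowest. It fell by 0.56 in chimeras (-0.56 ± 0.12, 1.47-fold, adjusted p = 0.00842) and was at -0.31 ± 0.13 in unmanipulated mice (adjusted p = 0.227). Its 4 probe sets in chimeras split into 2 that were clearly lower (-1.18 ± 0.20 and -1.11 ± 0.24) and 2 at -0.24 ± 0.28 and 0.31 ± 0.17. Ptpn22, a phosphatase of SRC family kinases, was at 0.93 ± 0.31 (adjusted p = 0.107) and 0.35 ± 0.28. Csk and Ptpn6 did not pass, nor did the surface modulators Ptprc, Cd2, Cd5 and Cd6, whose differences ran from -0.65 to 0.31.

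Markers of other cells moved with the IMP groups. Of 8 signalling genes used by immune receptors outside conventional T cells (Syk, Btk, Blnk, Lyn, Fgr, Plcg2, Fcer1g and Lat2), 5 rose in IMP cells of unmanipulated mice and 7 in those of chimeras. Their mean value was -0.22 to 0.38 in WT naive, -0.68 to -0.18 in MW naive, 1.61 and 1.75 in WT IMP and 1.69 to 1.89 in WM IMP arrays. Fcer1g, the Fc receptor gamma chain, was 3.53 ± 0.34 and 4.72 ± 0.31 higher, and Fgr, a SRC family kinase of myeloid cells, 2.96 ± 0.23 and 3.54 ± 0.20 higher. Of 7 markers of monocytes, macrophages and granulocytes 5 rose in each contrast, with means of 2.08 and 2.54 in WT IMP and 1.14 to 2.24 in WM IMP arrays against -1.21 to 0.41 in naive arrays. B cell markers rose for 1 of 7 genes in unmanipulated mice and for 4 in chimeras, with a mean of 2.37 in WM IMP 1 and of 0.70 or less in each other array. Of 5 dendritic cell markers 4 rose in WT IMP (list means 3.16 and 3.19) and 3 in WM IMP arrays (1.81 to 2.94), against -0.23 to 0.23 in naive arrays. Itgax, the integrin CD11c, was 4.31 ± 0.25 and 4.71 ± 0.23 higher, the cytokine receptor gene Flt3 3.92 ± 0.24 and 3.58 ± 0.21, and Siglech, of plasmacytoid dendritic cells, 5.48 ± 0.61 and 3.61 ± 0.55. Of 3 NK cell markers 2 rose in both contrasts (means of 1.96 and 2.12 in WT IMP and 1.16 to 1.48 in WM IMP arrays). Of 4 plasma cell markers none passed in both: Sdc1 and Xbp1 rose in unmanipulated mice, and Jchain and Mzb1 in chimeras. Cd8a, 1 of 2 CD8 markers, rose in chimeras (1.81 ± 0.27). Of 2 genes listed for gamma delta T cells, Blk rose in chimeras (2.12 ± 0.54) and Sox13 did not pass (0.20 ± 0.13). Blk was highest in WM IMP 1 (3.14), the array with the highest B cell mean. None of the 3 measured CD4 T cell markers (Cd4, Cd3e, Cd3g) passed. The share of these cells in the differences of the members was not tested, and which markers are absent cannot be read from values without levels.

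Other genes of the pathway, 60 on a list of which 54 had a value, were read beside the members. In unmanipulated mice 8 of the 54 changed (4 higher and 4 lower, 14.8%), beside 7.66% of all genes tested (5.31% higher and 2.35% lower). In chimeras 12 changed (4 higher and 8 lower, 22.2%), beside 13.1% of all genes (6.46% higher and 6.61% lower). Dgka, the kinase that removes diacylglycerol, fell in both contrasts (-1.0 ± 0.15, adjusted p = 0.00134, and -1.45 ± 0.13, adjusted p = 2.4e-05). So did Nras (-0.93 ± 0.20 and -1.18 ± 0.18) and Rasa3, which ends RAS signals (-1.05 ± 0.22 and -1.30 ± 0.20). The transmembrane adaptor genes Sit1 (-1.39 ± 0.21) and Trat1 (-1.18 ± 0.32) and the channel gene Orai2 (-0.97 ± 0.19) fell in chimeras, where the inhibitory adaptor Dok1 rose (0.98 ± 0.16). Rel, an NF-κB subunit, and the channel gene Orai3 rose in unmanipulated mice (1.02 ± 0.25, adjusted p = 0.0313, and 0.92 ± 0.20, adjusted p = 0.0177).

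Naive cells of MW chimeras were then compared with WT naive cells, both sorted by the same gate. Tec was higher in the chimeras, and 5 members fell: the surface receptors Cd2 and Cd5, the phosphatase Ptpn6, the exchange factor Vav1 and the adaptor Grb2. These 6 of 37 members (16.2%) stood beside 2.73% of all genes tested, of which 0.706% of genes rose and 2.02% fell. In all, 18 members did not overlap between the groups, beside 26.6% of all genes, and 27 of 37 differences were below 0 with a median of -0.26, against 0.05 over all genes (-0.14 against 0.02 with the hybridization control as covariate). Of the 7 myeloid markers 2 fell in MW naive cells, Lyz2 (-1.92 ± 0.23, adjusted p = 0.00326) and Fcer1g (-1.55 ± 0.31, adjusted p = 0.0262). Their list mean was -1.21 to -0.77 in MW naive and -0.23 to 0.41 in WT naive arrays, and their part in the result was not tested. This comparison uses the same WT naive arrays as the first contrast and the same MW naive arrays as the second, so its values are not independent of theirs.

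Tec, with the array values given above, was 2.89-fold higher in MW naive cells (1.53 ± 0.22, adjusted p = 0.00591). CD2 is an adhesion receptor that aids the TCR. Cd2 stood at -0.18, 0.07 and 0.11 in WT naive, -1.36, -1.10 and -1.0 in MW naive, -1.06 and -0.24 in WT IMP and -0.95, -1.0 and -1.48 in WM IMP arrays. Chimeric arrays were low whatever the cell state, and 1 of the WT IMP arrays was low with them. MW naive cells had 2.22-fold less Cd2 than WT naive cells (-1.15 ± 0.22, adjusted p = 0.0226). CD5 dampens TCR signals, and its surface level is known to follow the strength of self-recognition. Cd5 was at 0.00, -0.01 and 0.01 in WT naive, -1.38, -0.84 and -0.95 in MW naive, -0.01 and -0.05 in WT IMP and -1.17, -0.19 and -0.99 in WM IMP arrays. Both groups of unmanipulated mice lay near 0 and every chimeric array lay below them. The fall in MW naive cells was 2.08-fold (-1.06 ± 0.23, adjusted p = 0.0368). Cd6, a related receptor, was at -1.47, -1.04 and -0.60 in MW naive arrays and just missed the threshold (-1.04 ± 0.26, adjusted p = 0.0631).

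Ptpn6 encodes SHP-1, a phosphatase that restrains LCK and ZAP70. It was at 0.11, -0.09 and -0.02 in WT naive, -1.33, -1.14 and -0.82 in MW naive, -0.54 and -0.12 in WT IMP and -0.59, -0.89 and -1.32 in WM IMP arrays. The chimeric arrays lay below those of unmanipulated mice. Ptpn6 was 2.14-fold lower in MW naive than in WT naive cells (-1.10 ± 0.20, adjusted p = 0.0191). Of its 2 probe sets, 1 was at -1.97 ± 0.32 and the other at -0.22 ± 0.15.

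VAV1 switches on RAC and the actin cytoskeleton. Vav1 was at 0.02, -0.07 and 0.04 in WT naive, -1.27, -0.89 and -0.47 in MW naive, -0.65 and -0.43 in WT IMP and -1.02, -1.10 and -1.48 in WM IMP arrays. The WT naive arrays were above all others, and Vav1 was 1.84-fold lower in MW naive cells (-0.88 ± 0.19, adjusted p = 0.0386). Grb2, the adaptor that brings SOS1 to LAT, was at -0.05, -0.01 and 0.05 in WT naive, -0.66, -0.67 and -0.70 in MW naive, -0.34 and 0.06 in WT IMP and -0.66, -0.66 and -0.27 in WM IMP arrays. The MW naive arrays lay close together (SD 0.02) and did not overlap the WT naive arrays. The fall was 1.6-fold (-0.68 ± 0.14, adjusted p = 0.0353). In the gene table neither passed, with Vav1 at -0.84 ± 0.26 (adjusted p = 0.118) and Grb2 at -0.50 ± 0.15 (adjusted p = 0.11).

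The 4 CD3 chains were all below 0 in MW naive cells, from -0.57 to -0.20, and none passed. Cd3g was at -0.57 ± 0.17 (adjusted p = 0.114), Cd247 at -0.56 ± 0.17 (adjusted p = 0.124) and Cd3e at -0.29 ± 0.11 (adjusted p = 0.236). Lck (0.30 ± 0.18), Zap70 (0.03 ± 0.14), Lat (-0.02 ± 0.16), Plcg1 (-0.04 ± 0.13) and Was (0.36 ± 0.19) did not pass either. The means of Lck, Zap70 and Plcg1 join probe sets that disagreed. For Lck, 1 probe set was at 0.487, 0.794 and 1.030 in MW naive arrays, and another at -0.162, -0.099 and -0.087. In MW naive arrays 1 probe set of Zap70 was at -0.967, -0.551 and -0.350, and the others at 0.176 to 0.566. For Plcg1, 1 probe set was at -0.738, -0.736 and -0.155, and the others at 0.046 to 0.489. Of the 54 other pathway genes 3 fell and none rose (5.56%), beside 2.73% of all genes tested (0.706% higher and 2.02% lower). The 3 were Fyb, which encodes the adaptor ADAP (-0.81 ± 0.13), Nras (-0.81 ± 0.18) and the calcium sensor Stim2 (-0.64 ± 0.14).

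**Figure D4:**
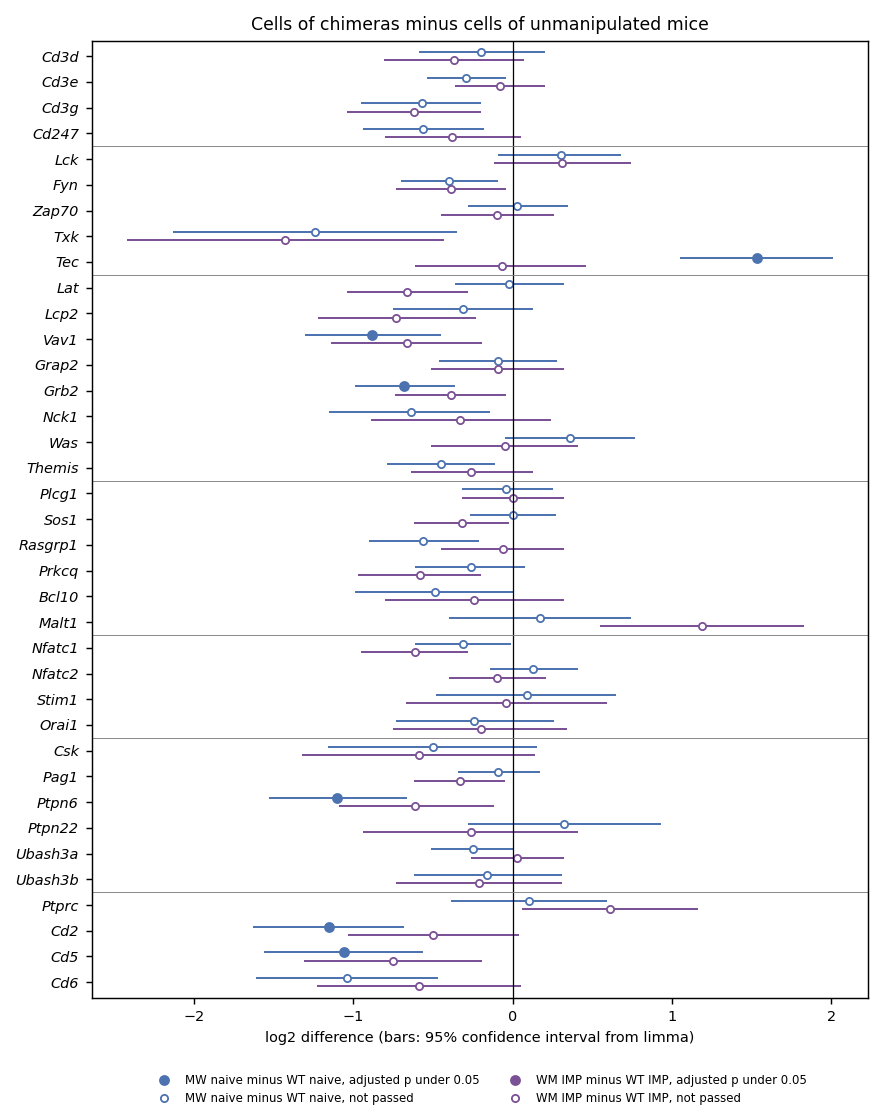
Log2 difference of each member between cells of chimeras and of unmanipulated mice (x axis), for naive cells (blue, MW minus WT) and IMP cells (purple, WM minus WT), with 95% confidence intervals from limma; filled points have an adjusted p under 0.05. Filled points are those of the 6 members that changed in naive cells, with Tec alone above 0, and none is filled for IMP cells.

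The Gapdh control moved with this comparison, since all 3 MW naive arrays were below all 3 WT naive arrays. With that difference as a covariate no member passed, and the differences became 1.09 ± 0.22 for Tec (adjusted p = 0.107), -0.75 ± 0.23 for Cd2, -1.24 ± 0.30 for Cd5, -0.71 ± 0.20 for Ptpn6, -0.56 ± 0.22 for Vav1 and -0.58 ± 0.19 for Grb2. All kept their sign. The hybridization controls moved with this comparison too, at 1.01 to 1.44 in MW naive and -0.46 to 0.56 in WT naive arrays. With them as covariate Cd5, Vav1 and Grb2 did not pass, while Tec, Cd2 and Ptpn6 did. Rasgrp1 passed there as well (-0.88 ± 0.18, adjusted p = 0.0374). In WT IMP 1, which had the lowest Gapdh value of all arrays, the values were -1.06 for Cd2, -0.65 for Vav1, -0.54 for Ptpn6, -0.46 for Tec, -0.34 for Grb2 and -0.01 for Cd5. Leaving out any of the WT naive arrays, MW naive 1 or MW naive 2 left 1 member, Tec, past the threshold, and leaving out WM IMP 1 gave 10. The shares of all genes that passed in those fits are not given here.

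**Figure D5:**
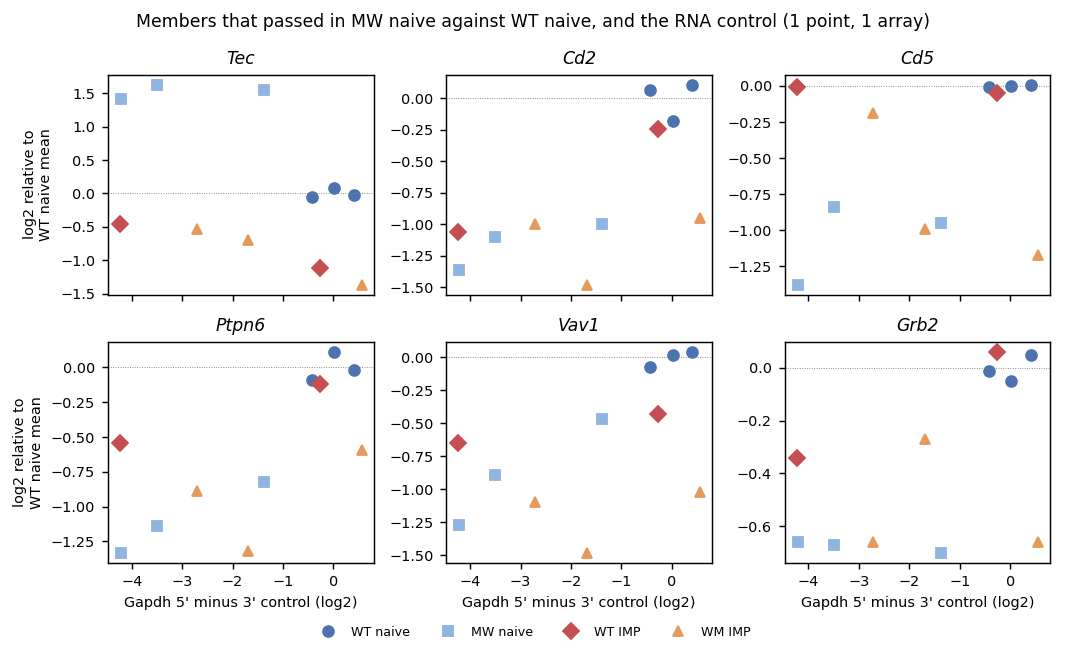
Values of the 6 members that changed between MW naive and WT naive cells (y axis, log2 relative to the WT naive mean) against the Gapdh 5' minus 3' control (x axis, log2), 1 point per array. The MW naive arrays lie at -1.38 or less on the x axis and the WT naive arrays at -0.42 or more. The WT IMP arrays lie at -4.23 and -0.27, and in the former Cd2 is the lowest of the 6 members and Cd5 the nearest to 0.

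IMP cells of WM chimeras were compared with WT IMP cells next. No member passed in limma, beside 1.27% of all genes tested (0.373% of genes higher and 0.897% lower). An unadjusted p under 0.05 was found for 15 of the 37. The share of all genes at that unadjusted threshold was not counted, so the 15 cannot be set beside 1.27%. The median over the members was -0.32, with 32 below 0, against 0.02 over all genes. It was -0.10, with 23 below 0, with the hybridization control as covariate, where all genes were at -0.04, and -0.19 without WT IMP 2 and -0.21 without WM IMP 1. In all, 16 members did not overlap, beside 33.5% of all genes. The values closest to the threshold were Malt1 (1.19 ± 0.29, adjusted p = 0.0718), Nfatc1 (-0.61 ± 0.15, adjusted p = 0.0768) and Lat (-0.66 ± 0.17, adjusted p = 0.0895). Malt1, the protease of the NF-κB arm, was at -0.41 and -0.11 in WT IMP and 1.30, 0.44 and 1.06 in WM IMP arrays, against -0.30 to 0.68 in the naive arrays. Malt1 passed in the gene table (1.08 ± 0.20, adjusted p = 0.0263). Without WM IMP 2, 4 members passed: Malt1 (1.44 ± 0.27) higher, and Lat (-0.78 ± 0.17), Lcp2 (-0.90 ± 0.22) and Cd5 (-1.04 ± 0.18) lower. The share of all genes that passed in that fit is not given here. Of the other pathway genes Nras (-1.06 ± 0.20, adjusted p = 0.0371) and the channel gene Orai3 (-1.10 ± 0.20, adjusted p = 0.0337) fell. Type of chimera, sex markers and hybridization controls, which were 1.62 to 3.17 in WM IMP and 0.45 and 0.47 in WT IMP, cannot be told apart here.

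The last test asked whether the difference of IMP from naive cells was itself different in chimeras. No member passed in limma, beside 0.0588% of all genes (0.0441% of genes higher and 0.0147% lower). An unadjusted p under 0.05 was found for 3 of the 37, Tec, Lat and Malt1. The share of all genes at that unadjusted threshold was not counted. Tec was at -1.60 ± 0.33 (adjusted p = 0.164), Malt1 at 1.02 ± 0.39 (adjusted p = 0.575) and Lat at -0.64 ± 0.23 (adjusted p = 0.556). For Grap2 the 95% interval was -0.56 to 0.56, for Prkcq -0.83 to 0.19 and for Nfatc1 -0.75 to 0.15. The members that passed in unmanipulated mice alone or in chimeras alone were therefore not shown to differ between these contrasts.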

How the data were processed

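RNA of 11 sorted samples was measured on single-channel oligonucleotide arrays. The main table is on a log2 scale as deposited, relative to the WT naive mean. RMA (robust multi-array averaging) is named for it in the submitters' processing notes, and the base of the logarithm follows from RMA's convention. The authors also deposited a gene table, quantile normalized by its name, on a log2 scale of the same kind, and this was an alternative. Labels give a sort purity of 92% to 99% and 30 ng of RNA. Precision is limited by how few arrays each group has.

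Of 45101 probe sets, 37510 that the gene table assigns to 1 gene were averaged into 20400 genes. Symbols of 17877 genes came from RefSeq. Groups were taken from the labels. The tool limma 3.58.1 (R 4.3.3) fitted the 4 groups over all 11 arrays by lmFit and eBayes, and p-values were adjusted by Benjamini-Hochberg over all genes in each of 5 comparisons. The procedure was tested on simulated data of independent noise, which held none of the differences in control probes between arrays described above. Python 3.11.15 did the rest.

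The members and the lists were chosen with earlier results of these data known. Values in every array are given for members that passed with a log2 difference of at least 0.5, at most 16, and for Cd3e, Cd247, Lck, Zap70, Lat and Was. Members outside that rule, such as Malt1 and Cd6, were named after their values were seen. Up to 8 other pathway genes were named by size in the contrasts of IMP with naive cells. Fyb, Stim2 and Orai3 were added as the whole of a small count. Alternatives were other summaries, scalings and thresholds, control probes as blocks or covariates (beta-actin was added after seeing the data) and leaving out each array. Some genes of the lists are not reported here and were left out of their counts and means. Levels between genes were not compared, and the amino acid sequences were not used here.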

Additional observations from a re-analysis of the deposited data

How the results depend on the processing

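Of the 19 calls, none changed direction under 26 alternatives, and 3 passed under all of them: Grap2, Prkcq and Tec in WM IMP against MW naive. When each array was left out in turn, 8 of the calls passed throughout. The cause of the following changes was not tested, except where fewer arrays or a stricter threshold make them. The share of all genes that passed under each setting of this section is not given beside the counts. They therefore cannot be read as particular to the members. In WT IMP against WT naive, 6 members became 0 when only the 7 arrays low in poly-A controls were fitted, 13 with array weights, 3 with the median of the probe sets, 3 at an adjusted p under 0.01, 2 with a 2-fold minimum, 10 in a fit to both groups alone and 1 to 9 with single arrays left out (1, Nfatc1, without WT IMP 1; 3 without WT naive 2 or 3). In WM IMP against MW naive, 7 became 4 in those 7 arrays, 4 with the 2-fold minimum, 11 in the gene table, 11 with each probe set by itself and 6 to 10 with single arrays left out. In MW naive against WT naive, 6 became 0 in those 7 arrays and with the Gapdh or beta-actin control as covariate, 11 with array weights, 1 at an adjusted p under 0.01 and 1 to 10 with single arrays left out. In WM IMP against WT IMP, 0 became 1 with the poly-A class of an array as a block, 1 in the gene table, 1 without the less specific probe sets, 5 with each probe set by itself and 0 to 4 with single arrays left out. The difference between both contrasts gave 0 members throughout.

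With the replicate number as a block, 4, 7, 5, 0 and 0 members changed in the 5 comparisons, in the order given. The labels do not state that the numbers pair arrays, so they were not taken as pairs. Deviations of same-numbered arrays had r between -0.28 and 0.19 over 15 pairs, 2 of them over 0.1. Only WT naive and WT IMP came from the same kind of mouse, with r at 0.19 for number 1 and -0.06 for number 2. With 2 WT IMP arrays these values cannot decide whether arrays were paired. With 2 WT IMP arrays and values that hold no brightness, small differences and signal near background could not be assessed.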

Other observations

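Single probe sets of members that did not pass as a gene differed when each probe set was tested by itself with limma. One of the 4 probe sets of Lck was lower in WT IMP than in WT naive cells (-0.91 ± 0.23, adjusted p = 0.0427) and higher in WM IMP than in WT IMP cells (1.49 ± 0.23, adjusted p = 0.0155), while the other 3 lay between -0.62 and 0.50 in these comparisons. One of the 3 probe sets of Malt1 was higher in WM IMP cells than in MW naive cells (1.31 ± 0.25, adjusted p = 0.00562) and than in WT IMP cells (1.74 ± 0.28, adjusted p = 0.0176). Of the 5 probe sets of Sos1, 2 were lower in WM IMP than in MW naive cells (-1.04 ± 0.30 and -0.83 ± 0.19) and the other 3 lay between -0.20 and 0.13. One of the 3 probe sets of Nck1 was lower in MW naive than in WT naive cells (-1.72 ± 0.27, adjusted p = 0.00968), with the others at -0.12 ± 0.40 and -0.09 ± 0.31. These probe sets were picked after their values were seen. The transcripts that each probe set reads were not analysed here.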
